A study of Mus musculus with 3 samples.

Results

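The cells described here were the macrophages of subcutaneous implants, compared between implants of rhBMP2 in Matrigel from mice given palovarotene (Palo) and implants of Matrigel alone (Matrigel-only). They were chosen as cells with 200 to 6000 detected genes, at most 5% mitochondrial counts, less than 1% of counts from 5 collagen and matrix genes of stromal cells, and at least 3 detected genes of *Csf1r*, *C1qa*, *C1qb*, *Adgre1*, *Cd68* and *Lyz2*. This rule found 5589 macrophages in the Palo library and 5659 in the Matrigel-only library, 11248 of the 16025 cells of these libraries within the limits on genes and mitochondrial counts. The whole series held 21503 such cells.

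All mice were CD-1 females of 6 to 8 weeks, and their tissue masses were taken on day 5. Matrigel-only mice carried the basement membrane gel without rhBMP2 and were given nothing by mouth. Palo mice carried rhBMP2, a recombinant bone morphogenetic protein able to start cartilage and bone formation outside the skeleton, and received palovarotene, an agonist of the retinoic acid receptor gamma, at 4 mg/kg orally. The groups therefore differed in rhBMP2, in palovarotene and in oral dosing, and the effects of these cannot be told apart in this comparison. Mice of the Vehicle group carried rhBMP2 and received the corn oil and DMSO carrier, and the 3037 macrophages of their library are given beside the others. Each group was 1 droplet library, in which no label ties a cell to a mouse, so that differences between mice could not be estimated and conditions were compared without a test.

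Macrophages enter an implanted gel within days, where they clear debris, present antigen and release growth factors and chemokines. Macrophages of resting connective tissue commonly carry *Lyve1*, *Folr2*, *F13a1* and the mannose receptor *Mrc1*, while cells that arrived as blood monocytes carry the chemokine receptor *Ccr2*. Retinoids act through nuclear receptors that switch genes on directly, and BMP2 acts through cell surface receptors and Smad proteins.

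The markers that chose the cells were abundant in each library. *Csf1r*, the receptor for the macrophage growth factor CSF1, stood at 992 counts per 1000000 counts (CPM) in Matrigel-only, 717 in Vehicle and 852 in the Palo library macrophages, where the level of a gene is its share of all unique molecular identifiers (UMIs) of the summed cells. Because these genes served in the rule, their presence is no finding. *Mertk*, the efferocytosis receptor, which had no part in the rule, was at 42.1, 41.0 and 40.5 CPM, and *Ptprc*, the leukocyte antigen CD45, at 467, 487 and 487 CPM. The 15 macrophage markers that had no part in the rule all reached 20 CPM in Palo or Matrigel-only macrophages. *Cx3cr1*, the fractalkine receptor, was higher in Palo macrophages (59.3 CPM in Matrigel-only, 191 in Vehicle, 101 in Palo), *Mrc1* was lower, and the other 13 differed by less than 1.5-fold.

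Macrophages were 76.6% of the Palo cells and 64.8% of the Matrigel-only cells, a difference of 11.8 percentage points (95% Newcombe interval 10.4 to 13.1, counting error only), and 55.4% of the Vehicle cells. Their summed UMIs were 27254209 in Palo, 20068040 in Matrigel-only and 13741977 in Vehicle, with a median of 4275, 3131 and 3774 UMIs per cell. The rule needs 3 detected markers, which deeper cells meet more easily. Under the stromal limit, 268 Palo, 497 Matrigel-only and 351 Vehicle cells had 2 markers and stayed outside. The part of depth in the shares was not tested. Palo and Matrigel-only macrophages shared 12 cell barcodes. Summed markers of other cell types differed between the libraries. The 16 stromal markers made 729 CPM in Matrigel-only and 513 CPM in Palo macrophages. They include the 5 genes that the rule limited, so this sum was held down by the choice of cells. Those 5 genes made 0.0484% of Matrigel-only and 0.0342% of Palo macrophage UMIs. The 6 red cell markers made 139 and 224 CPM, and 6 adipocyte markers 19.1 and 0.294 CPM, with 3 adipocyte markers at 0 in Palo. The 15 T and NK cell markers (27.0 and 27.0 CPM) and the 10 neutrophil markers (32.8 and 34.0 CPM) were low in both, and 7 chondrocyte markers made 1.49 and 0.954 CPM. Of the neutrophil sum, *Csf3r* held 30.4 and 30.5 CPM. The 12 conventional dendritic cell markers made 106 and 130 CPM, and the 10 B and plasma cell markers 155 and 110 CPM. *Cd209a* held 50.5 and 55.7 CPM of the first sum, and *Ighm* 130 and 86.9 CPM of the second. The 6 plasmacytoid dendritic cell markers made 235 and 169 CPM, of which *Bst2*, also a member of the interferon list below, held 232 and 168 CPM. In 1 alternative, cells with several markers of T and NK, B, neutrophil, basophil or conventional dendritic cells were left out. It kept 5421 Matrigel-only and 5311 Palo macrophages. The 30 leading genes described below kept their direction, as did 84 of 85 list genes past 1.5-fold, all but *Fabp4*. These genes were chosen for their ratios, so their direction had little room to turn. Beyond this, the part of these cells in the differences below was not tested.

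With a level of at least 20 CPM on 1 side, 6266 genes could be described. A gene under 20 CPM on the other side entered only through the side where it was higher. Of these, 148 (2.36%) were at least 1.5-fold higher and 425 (6.78%) at least 1.5-fold lower in Palo macrophages, and 5693 (90.9%) differed by less. The interval of the ratio from counting error lay wholly beyond 1.5-fold for 99 and 242 of them. The middle of all described genes was itself below equality, with a median log2 ratio of -0.16. On ratios centred on that median, 272 genes were higher and 206 lower, so that the share of higher genes among those beyond 1.5-fold went from 25.8% to 56.9%. The balance of the directions thus rested on the scaling. The 15 largest and the 15 smallest ratios lay beyond 1.5-fold on either scale, which a shift of that size could not have changed. A count below is on the uncentred scale unless stated. Each uncentred count of list members in macrophages is to be read beside the 2.36% higher and 6.78% lower of all described genes. Each count on centred ratios is to be read beside the 272 higher and 206 lower of the 6266 genes.

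The Vehicle level lay between the other libraries for 72 of the 148 higher and 240 of the 425 lower genes. It was above both for 36 and 103 of them, and below both for 40 and 82. Over all described genes these positions were not counted. Among the lists below, Vehicle was highest in 18 of 31 respiratory chain genes and in 1 of 18 cell cycle genes. A list count of Vehicle levels therefore stands without a share over all genes. In stromal cells of the same libraries, 68 of the higher and 299 of the lower genes also reached 20 CPM. Of these, 25 and 75 were beyond 1.5-fold in the same direction. Over all 5096 described genes at that level in stromal cells, 1.14% were higher and 3.59% lower.

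**Figure D1:**
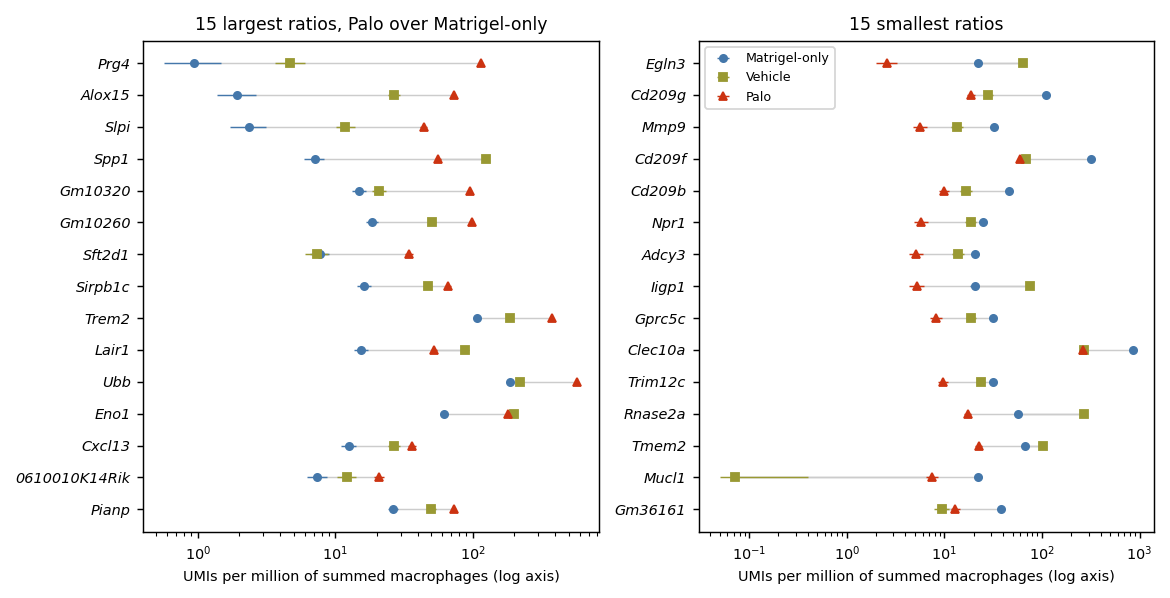
Levels of the 15 genes with the largest (left) and the 15 with the smallest (right) ratio of Palo over Matrigel-only macrophages, in CPM on a log axis; symbols mark the 3 libraries and bars exact Poisson 95% intervals. *Prg4* went from 0.947 CPM in Matrigel-only to 114 CPM in Palo, *Egln3* from 22.1 to 2.57 CPM.

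The genes furthest above Matrigel-only in Palo macrophages fell into those held by very few cells and those spread over many. *Trem2*, a lipid-sensing receptor of macrophages, was among the widely held genes. It stood at 108 CPM in Matrigel-only, 186 in Vehicle, 379 in Palo, 3.51-fold higher in Palo than in Matrigel-only (log2 ratio 1.81, 95% interval 1.74 to 1.88). After each cell was thinned to 1400 UMIs, 14.0% of Matrigel-only, 21.3% of Vehicle and 37.9% of Palo macrophages had a *Trem2* UMI, against 0.566%, 0.266% and 1.27% of stromal cells, whose median depth was 9082, 17114 and 12955 UMIs. Unthinned, 1464, 1191 and 3481 macrophages had one.

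*Spp1*, the secreted matrix protein osteopontin, was at 7.08 CPM in Matrigel-only, 126 in Vehicle and 56.2 in the Palo library (log2 ratio of Palo over Matrigel-only 2.99, 2.74 to 3.25). Palo thus lay between the other libraries. *Lair1*, an inhibitory receptor for collagen, had the same order (15.4, 88.3 and 52.1 CPM). *Sirpb1c*, of the SIRP receptor family, was at 16.2, 47.0 and 66.6 CPM, highest in Palo.

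*Prg4*, which encodes lubricin, *Alox15*, a lipoxygenase, and *Slpi*, a secreted protease inhibitor, had the largest ratios and were in few cells. *Prg4* had 19 UMIs in 13 Matrigel-only cells, 65 UMIs in 14 Vehicle cells and 3119 UMIs in 95 Palo cells (0.947, 4.73 and 114 CPM). *Alox15* went from 1.94 CPM in Matrigel-only and 26.9 in Vehicle to 72.9 in Palo, where 133 cells held it, and *Slpi* from 2.34 and 11.9 to 43.9 CPM in 58 Palo cells. The 1% of Palo macrophages richest in each held 89.0% of the *Prg4*, 87.6% of the *Alox15* and 99.8% of the *Slpi* UMIs. *Cxcl13*, a B cell attracting chemokine, was also concentrated, with 99.6% of its Palo UMIs in 1% of the cells and 60 Palo cells in all (12.6, 26.8 and 36.1 CPM).

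Of the 7 leading higher genes that reached 20 CPM in stromal cells, *Eno1*, *Ubb*, *Gm10260*, *Gm10320* and *Pianp* were higher by more than 1.5-fold there as well. *Sft2d1* and *0610010K14Rik* had stromal ratios beyond 1.5-fold at levels under 20 CPM. The log2 ratio of *Ubb*, a polyubiquitin gene, was 1.62 in macrophages and 1.42 in stromal cells, and that of the glycolytic enzyme *Eno1* 1.54 and 1.41. *Gm10320* gave 2.67 and 2.48, and *Sft2d1*, a membrane trafficking gene, 2.15 and 2.44. *Eno1*, *Ubb*, *Gm10260* and *Gm10320* have near-identical copies among which the counting could have split reads, and their values are uncertain for that reason. The parent-like *Rps18* of *Gm10260* differed little (746 CPM in Matrigel-only and 946 in Palo), while *Gm10260* went from 18.6 to 98.2 CPM.

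The genes furthest below Matrigel-only included a cluster of C-type lectin receptors, which bind sugars on microbes and on other cells. *Cd209g* (chromosome 8, 4134098 to 4137707, plus strand, mm10) was at 111 CPM in Matrigel-only, 28.2 in Vehicle and 18.9 in the Palo library. *Cd209f* (chromosome 8, 4102787 to 4105835, minus strand) was at 315, 69.4 and 59.8 CPM, 5.26-fold lower in Palo (log2 ratio -2.40, -2.48 to -2.32). *Cd209b* was at 45.9, 16.7 and 10.0 CPM. In all of these the Matrigel-only library was the highest and Palo the lowest. Among further genes of the family on chromosome 8, chosen after their values were seen, *Cd209d* was lower (124, 172 and 50.0 CPM) and *Cd209a* was not (50.5, 125 and 55.7 CPM) over all macrophages, although it was within the *Ms4a7* set (27.7, 70.4 and 11.8 CPM), while *Cd209c* and *Cd209e* stayed under 20 CPM in Palo and Matrigel-only macrophages. Because these genes are related in sequence, the counting could have split reads among them.

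*Clec10a*, a lectin for galactose-type sugars, was the most abundant of the leading lower genes, at 858 CPM in Matrigel-only, 273 in Vehicle and 262 in the Palo library (log2 ratio -1.71, -1.75 to -1.67). At 1400 UMIs, 54.7% of Matrigel-only, 20.5% of Vehicle and 26.3% of Palo macrophages had a *Clec10a* UMI, and 3.04%, 0.717% and 0.916% of stromal cells. *Mmp9*, a gelatinase, was at 32.3, 13.5 and 5.69 CPM in macrophages. In stromal cells, *Mmp9* differed the other way, with 26.6 CPM in Matrigel-only and 94.9 in Palo. Of the 8 leading lower genes that reached 20 CPM in stromal cells, 5 were at least 1.5-fold lower there. Another 2, with *Mmp9* among them, were at least 1.5-fold higher. *Iigp1*, an interferon-induced GTPase, and *Rnase2a*, a secreted ribonuclease, were highest in Vehicle (20.4, 75.5 and 5.21 CPM for *Iigp1*, and 56.4, 272 and 17.3 CPM for *Rnase2a*). *Npr1*, the natriuretic peptide receptor, was at 24.9, 18.6 and 5.76 CPM, and *Adcy3*, an adenylate cyclase, at 20.6, 13.9 and 5.14 CPM. *Gprc5c*, an orphan receptor of the retinoic acid-inducible family (31.3, 18.8 and 8.22 CPM), *Trim12c* (31.6, 23.6 and 9.69 CPM) and *Tmem2*, a hyaluronidase (67.3, 104 and 22.6 CPM), were lowest in Palo. The transcript *Gm36161* was lowest in Vehicle (38.0, 9.39 and 12.99 CPM). *Mucl1* rested on 35 Matrigel-only and 18 Palo cells.

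The gene with the smallest ratio of all, *Egln3*, belongs to a list of 24 genes induced when cells lack oxygen. In low oxygen the factor HIF is no longer hydroxylated and destroyed, and it switches on glucose uptake, mitophagy and growth factor genes, among them *Egln3*, which encodes one of the hydroxylases themselves. Of the 24 genes, 16 could be described, and 7 of these were at least 1.5-fold lower in Palo macrophages while 0 were higher, beside 6.78% and 2.36% of all described genes. Their median log2 ratio was -0.50, beside -0.16 for all, and 14 of the 16 lay below the median of all. The same 7 genes counted as lower on centred ratios.

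To show what lies before these genes, the 250 bases upstream of the start are printed below for the 5 lower genes with a single window in RefSeq (build GRCm38.p6, of the coordinates of mm10). Capitals mark the core of the HIF binding element, ACGTG or GCGTG, read on either strand, so that a CACGTG counts on both. The windows are chr12:54203875-54204124 on the minus strand for *Egln3*, chr7:138909507-138909756 on the minus strand for *Bnip3*, chr4:119108495-119108744 on the plus strand for *Slc2a1*, chr14:45318573-45318822 on the minus strand for *Ero1a*, the current symbol of *Ero1l*, and chr10:59323046-59323295 on the plus strand for *P4ha1*.
Egln3: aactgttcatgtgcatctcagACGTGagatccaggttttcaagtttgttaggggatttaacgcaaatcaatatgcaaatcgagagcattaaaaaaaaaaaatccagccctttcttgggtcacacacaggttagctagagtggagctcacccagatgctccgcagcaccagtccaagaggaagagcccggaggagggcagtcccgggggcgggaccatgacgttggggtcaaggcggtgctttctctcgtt
Bnip3: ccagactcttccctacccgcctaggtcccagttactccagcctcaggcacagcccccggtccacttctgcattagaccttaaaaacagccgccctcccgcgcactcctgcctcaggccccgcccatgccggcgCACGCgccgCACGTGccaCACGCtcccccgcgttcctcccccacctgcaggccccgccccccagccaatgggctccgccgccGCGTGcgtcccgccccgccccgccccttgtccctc
Slc2a1: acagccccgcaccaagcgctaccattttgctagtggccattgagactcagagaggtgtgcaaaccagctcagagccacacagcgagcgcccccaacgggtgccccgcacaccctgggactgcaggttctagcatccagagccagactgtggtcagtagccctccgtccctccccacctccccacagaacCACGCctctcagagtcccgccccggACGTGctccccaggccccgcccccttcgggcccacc
Ero1a: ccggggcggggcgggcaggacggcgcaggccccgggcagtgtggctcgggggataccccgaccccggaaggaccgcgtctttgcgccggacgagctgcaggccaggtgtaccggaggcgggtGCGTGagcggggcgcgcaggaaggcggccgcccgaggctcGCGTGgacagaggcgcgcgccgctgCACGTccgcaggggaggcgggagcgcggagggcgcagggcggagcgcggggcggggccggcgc
P4ha1: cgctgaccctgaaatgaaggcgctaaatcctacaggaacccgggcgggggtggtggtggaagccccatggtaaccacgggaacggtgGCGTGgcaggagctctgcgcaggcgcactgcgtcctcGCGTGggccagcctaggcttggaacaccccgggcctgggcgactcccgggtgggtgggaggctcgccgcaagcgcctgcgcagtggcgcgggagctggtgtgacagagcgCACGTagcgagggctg
The letters matched 5 times in *Bnip3*, 3 times in *Ero1a* and *P4ha1*, 2 times in *Slc2a1* and 1 time in *Egln3*, where the match lay 229 bases before the RefSeq start. For *Egln3*, unlike the other printed genes, the bases after that start were not found in a GENCODE transcript of the gene, so its start is less certain. At least 1 match was in 38.6% of all 32851 windows of the table, and in 14 of the 20 windows of the described hypoxia genes. A match of 5 letters is a description of the sequence and not a binding site.

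*Egln3* stood at 22.1 CPM in Matrigel-only (444 UMIs), 64.0 in Vehicle (879 UMIs) and 2.57 in Palo (70 UMIs), 8.61-fold lower in Palo than in Matrigel-only (log2 ratio -3.11, -3.49 to -2.74). *Bnip3*, a mitophagy receptor, was at 121, 205 and 44.3 CPM. *Slc2a1*, the glucose transporter GLUT1, was at 50.3, 117 and 23.2 CPM. In all 3 genes Vehicle was the highest and Palo the lowest library. *Mxi1*, a MYC antagonist, was at 58.1, 80.3 and 25.5 CPM, and *Ero1l*, an oxidase of the endoplasmic reticulum, at 46.6, 93.4 and 23.2 CPM. *P4ha1*, a collagen prolyl hydroxylase subunit, was at 126, 165 and 75.0 CPM. *Vegfa*, the vascular growth factor, was at 20.8, 56.3 and 8.07 CPM in macrophages and at 151 and 72.8 CPM in Matrigel-only and Palo stromal cells, so that it was held mainly outside macrophages.

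The 9 other described hypoxia genes differed by less than 1.5-fold, from *Egln1* (104, 159 and 71.8 CPM) to *Mif* (533, 1139 and 592 CPM). Vehicle held the highest level in 15 of the 16 genes, all but *Kdm3a*, with no share over all described genes to set beside it. In stromal cells of the same libraries all 16 reached 20 CPM, 7 were at least 1.5-fold lower in Palo and 0 higher, beside 3.59% and 1.14% of the 5096 described genes that reached that level there, with a median log2 ratio of -0.44.

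**Figure D2:**
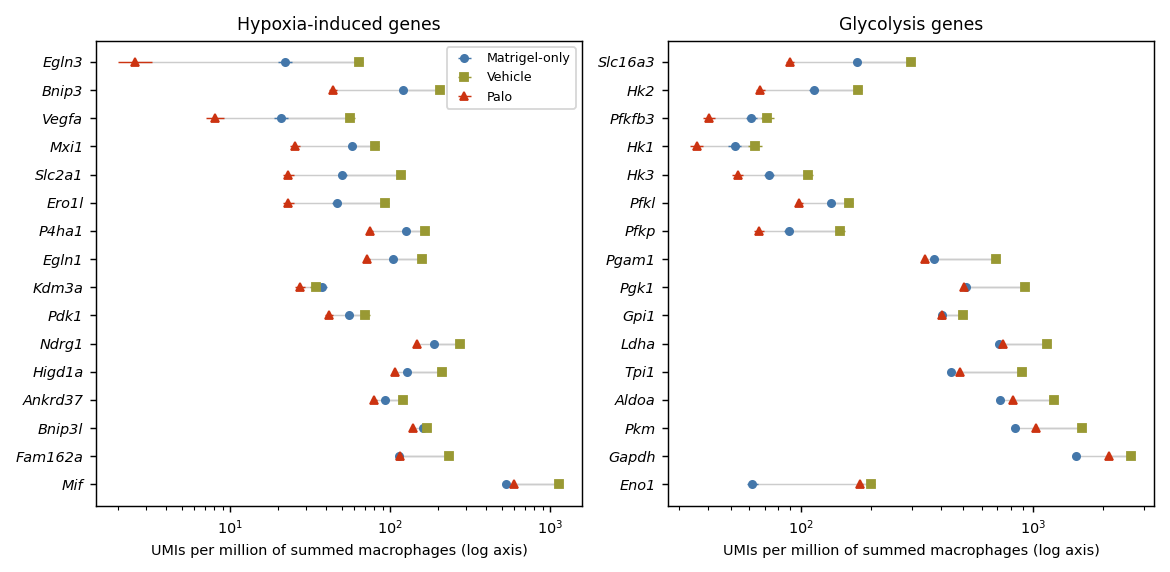
Levels of the 16 hypoxia-induced genes (left) and the 16 glycolysis genes (right) that could be described, in CPM on a log axis, in the macrophages of each library with exact Poisson 95% intervals. Palo lies left of Matrigel-only in 14 of the hypoxia genes, and Vehicle is the highest library in 15 of the hypoxia and 16 of the glycolysis genes. The share of all described genes with Vehicle highest was not counted.

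Of 16 glycolysis genes described, 3 were lower and 1 higher in Palo, with a median log2 ratio of -0.08 that turned positive on centred ratios. The lower ones were the lactate exporter *Slc16a3* (175 CPM in Matrigel-only, 296 in Vehicle, 89.9 in Palo), the hexokinase *Hk2* (113, 176 and 67.0 CPM) and the regulatory kinase *Pfkfb3* (61.3, 71.8 and 40.4 CPM). The other 12 genes differed by less than 1.5-fold, among them *Pgk1* (515, 918 and 501 CPM), *Ldha* (709, 1139 and 741 CPM) and *Gapdh* (1528, 2635 and 2116 CPM). The higher gene was *Eno1*, named above for its near-identical copies. The 31 described genes of the respiratory chain had 0 members beyond 1.5-fold in either direction and log2 ratios from -0.39 to 0.37.

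Genes of tissue-type macrophages formed the list with the lowest median. Of 18 described, 13 were at least 1.5-fold lower and 0 higher in Palo macrophages, beside 6.78% and 2.36% of all described genes. Their median log2 ratio was -0.74. On centred ratios 8 were lower and 1, *Ccl12*, was higher. *Igf1*, insulin-like growth factor, was at 254 CPM in Matrigel-only, 116 in Vehicle and 111 in the Palo library (log2 ratio -1.19, -1.26 to -1.13). *Gas6*, a bridge to dying cells, was at 616, 228 and 300 CPM, and *F13a1*, a transglutaminase, at 2261, 816 and 1243 CPM. For these genes the Vehicle and Palo libraries were both below Matrigel-only. *Igf1* was lowest in Palo, and *Gas6* and *F13a1* were lowest in Vehicle. Vehicle was also the lowest library for *Lyve1*, the hyaluronan receptor (149, 39.7 and 77.8 CPM), the scavenger receptor *Stab1* (874, 386 and 449 CPM), the folate receptor *Folr2* (617, 249 and 369 CPM) and the selenium carrier *Selenop* (3485, 1394 and 2131 CPM).

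*Ccl8*, a chemokine, and *Maf*, a transcription factor of this state, were like *Igf1* lowest in Palo, with *Ccl8* at 2794, 5259 and 1374 CPM and *Maf* at 1135, 1004 and 567 CPM. *Mrc1* was at 2192, 2330 and 1341 CPM. The members within 1.5-fold were *Cd163*, *Wfdc17*, *Ms4a7*, *Fcrls* and *Ccl12*, the last at 353, 497 and 476 CPM. In stromal cells, where 14 of the 18 genes reached 20 CPM, 10 were lower and 0 higher, beside the same 3.59% and 1.14%. Among cells with at least 2% stromal counts, 214 Matrigel-only and 155 Palo cells also had at least 3 of the macrophage markers. Whether the stromal values carry macrophage RNA was not tested.

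A list of genes linked to alternative activation, the state that interleukin 4 induces, shared *Mrc1* with the tissue-type list. It also held *Hal*, *Ltc4s*, *Retnla* and *Ear2*, which led clusters in an earlier analysis of these data. Whether interleukin 4 acted on these cells was not tested. Of 15 described, 10 were lower and 1, *Alox15*, was higher, beside 6.78% and 2.36% of all described genes. The median log2 ratio was -0.71, and 7 were lower on centred ratios. Besides *Cd209f*, *Clec10a* and *Cd209d*, they included *Hal*, a histidine lyase (193 CPM in Matrigel-only, 127 in Vehicle, 75.3 in Palo), and *Retnla*, the secreted RELM alpha (6792, 842 and 4291 CPM). *Arg1*, arginase, and *Ccl24*, an eosinophil chemokine, were much higher in Vehicle (57.3, 1194 and 33.2 CPM for *Arg1*, and 212, 1182 and 138 CPM for *Ccl24*). *Il4ra*, the receptor subunit for interleukin 4, was at 483, 611 and 348 CPM and *Mgl2* at 277, 559 and 206 CPM, both within 1.5-fold over all macrophages. *Mgl2* was lower within the *Ms4a7* set (279, 240 and 97.9 CPM), within the *Hal* set (266, 344 and 129 CPM) and in cells with at least 4 of the 6 markers (log2 ratio -0.75).

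The macrophages held cells of different kinds, which were counted by small sets of genes that led clusters in an earlier analysis of these data, each cell needing at least 2 genes of a set. At 1400 UMIs, 52.2% of Matrigel-only, 46.5% of Vehicle and 38.7% of Palo macrophages had the set of *Ms4a7*, *Stab1*, *Ccl12* and *Ccl8*. Unthinned, the shares were 60.1%, 57.6% and 51.5%. The set of *Hal*, *Ltc4s* and *Retnla* was in 14.99%, 3.46% and 7.86% (unthinned 23.5%, 7.18% and 16.8%), and that of *Mmp12*, *Ear2*, *Dcstamp* and *Itgax* in 6.95%, 5.56% and 7.75% (unthinned 11.7%, 9.91% and 18.5%). Because these genes differed between the libraries themselves, the shares do not tell a change of cell kinds from a change of these genes within cells.

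Within the *Ms4a7* and *Hal* sets, the 30 leading genes had the direction seen over all macrophages, all but *Mucl1* in the *Ms4a7* set. Because these genes were chosen as the most extreme over macrophages that include these sets, this agreement was largely fixed in advance. In the *Ms4a7* set, *Igf1* was at 394 CPM in Matrigel-only and 211 in Palo, *Gas6* at 952 and 569, and *Clec10a* at 1159 and 359. In the *Hal* set, *Igf1* was at 275 and 146 CPM and *Cd209f* at 665 and 169. The median log2 ratio of the tissue-type list was -0.50 within the *Ms4a7* set and -0.66 within the *Hal* set. The first median includes *Ms4a7*, *Stab1*, *Ccl12* and *Ccl8*, which chose those cells, and is not read as a result. *Trem2* was higher in Palo within both (140 and 528 CPM in the *Ms4a7* set, 112 and 404 CPM in the *Hal* set), and *Egln3* lower (17.8 and 2.42 CPM, and 18.6 and 2.81 CPM).

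**Figure D3:**
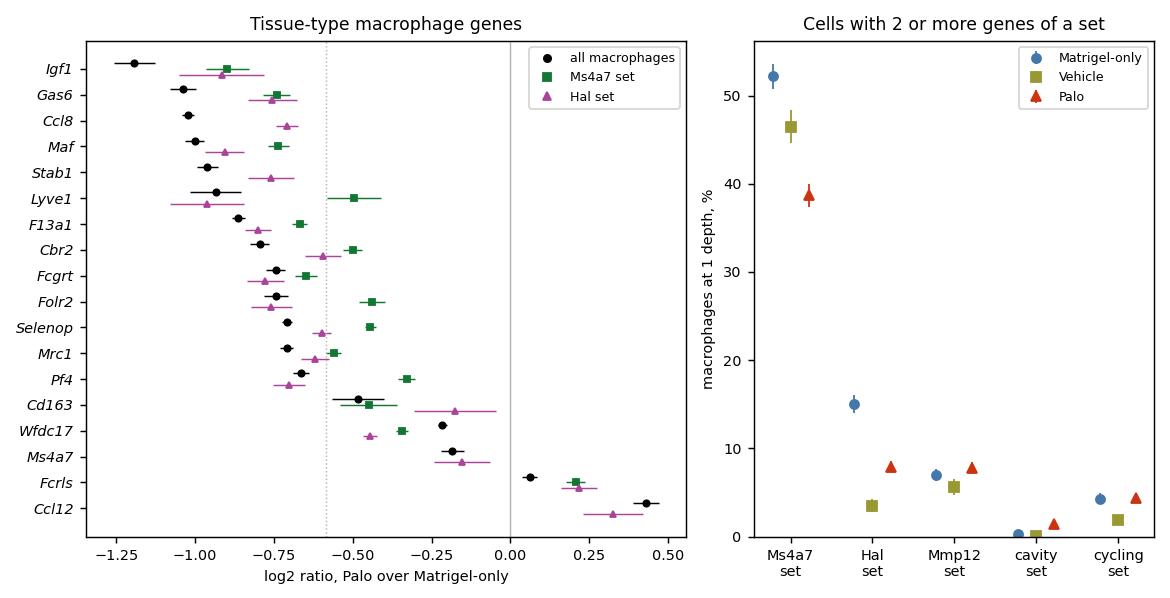
Left, log2 ratios of Palo over Matrigel-only for the 18 described tissue-type genes in all macrophages, in cells of the *Ms4a7* set and in cells of the *Hal* set, with exact conditional 95% intervals; the dotted line marks 1.5-fold lower, and genes of a set are left out within it. Right, the share of macrophages with at least 2 genes of each set at 1400 UMIs with exact binomial 95% intervals, where the *Ms4a7* set goes from 52.2% in Matrigel-only to 38.7% in Palo.

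Of 11 described genes of monocytes and recruited cells, 9 lay above the median of all genes. In this list 1 was higher (*Clec4e*, a receptor for damaged cells and mycobacteria, 15.8 CPM in Matrigel-only, 21.3 in Vehicle, 24.2 in Palo) and 1 lower (*Plac8*, 208, 213 and 90.2 CPM), with a median log2 ratio of 0.29. *Ccr2* was at 722, 702 and 1054 CPM. The Vehicle library was the one with *Ly6c2* and *Chil3* (31.8 and 93.1 CPM), which were under 2 CPM in Palo and Matrigel-only macrophages.

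Antigen presentation genes of MHC class II were high in each library. Of 12 described, 1 was higher and 0 lower, beside 2.36% and 6.78% of all described genes. The median log2 ratio was 0.34, and on centred ratios 4 were higher. *Cd74*, the invariant chain, was at 10591 CPM in Matrigel-only, 11164 in Vehicle, 15829 in Palo, and *H2-Ab1* at 4673, 4845 and 6833 CPM. *H2-DMb1*, of the peptide exchange factor, was the gene beyond 1.5-fold (230, 338 and 364 CPM). *H2-Eb1* differed little between Matrigel-only and Palo (3672 and 3784 CPM) and was at 1044 CPM in Vehicle, although *H2-Aa* was at 3566 there. Within the *Hal* set *H2-Ab1* was at 2372 CPM in Matrigel-only and 5195 in Palo, and within the *Mmp12* set at 10361 and 10617 CPM.

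In lipid handling and lysosome genes, 6 of 26 described were higher and 2 lower, with a median log2 ratio of 0.03. Beside *Trem2* and *Spp1*, the higher genes were the tetraspanin *Cd9* (20.7 CPM in Matrigel-only, 128 in Vehicle, 55.8 in Palo), the elastase *Mmp12* (158, 428 and 300 CPM), the lectin *Lgals3* (427, 1416 and 687 CPM) and the lipoprotein lipase *Lpl* (484, 430 and 763 CPM). Palo lay between the other libraries for *Cd9*, *Mmp12* and *Lgals3*. *Abca1*, the cholesterol exporter, was lower (413, 296 and 171 CPM, log2 ratio -1.27, -1.32 to -1.22), also within the *Ms4a7* set (594 and 281 CPM). The cathepsins and *Apoe*, the lipid carrier (13993, 8164 and 12701 CPM), were within 1.5-fold.

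Osteoclasts are bone-resorbing cells of the same lineage. Of 11 genes of their differentiation described, 2 were higher, the acid phosphatase *Acp5* (23.2 CPM in Matrigel-only, 62.7 in Vehicle, 39.7 in Palo) and the transcription factor *Mitf* (36.1, 52.8 and 56.9 CPM), and 1, *Mmp9*, was lower. *Tnfrsf11a*, the receptor RANK, was at 53.0, 53.0 and 64.7 CPM. *Ctsk*, the collagen-degrading cathepsin of the mature cell, was at 4.24, 34.2 and 3.71 CPM.

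For the clearance of dying cells, 2 of 16 described genes were higher and 2 lower. *Axl*, a receptor for the bridge *Gas6*, was at 44.6 CPM in Matrigel-only, 46.6 in Vehicle, 79.1 in Palo, and *Cd300lf*, a phosphatidylserine receptor, at 14.6, 64.5 and 25.6 CPM. The lower ones were *Gas6* itself and *Stab1*. The receptor *Mertk* differed by less than 1.5-fold. So did the opsonin *C1qa*, which served in the rule and is not read as a finding. The complement list of 13 described genes had 1 higher member, *Itgax*, the integrin subunit CD11c (40.5, 81.6 and 105 CPM), and 0 lower. Its members *C1qa* and *C1qb* served in the rule.

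**Figure D4:**
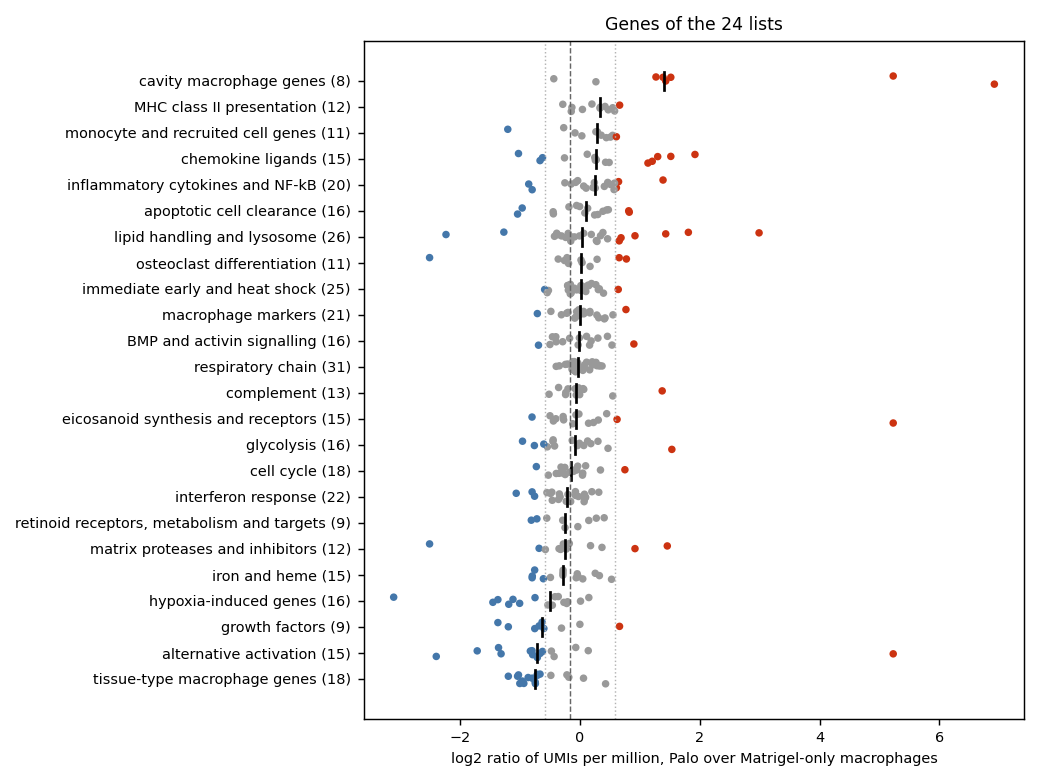
Log2 ratios of Palo over Matrigel-only macrophages for the described genes of 24 lists, their number in brackets; each point is a gene, red or blue beyond 1.5-fold (dotted lines), the black bar is the median of a list and the dashed line the median of all described genes, -0.16. Tissue-type macrophage genes have the lowest median, -0.74, and cavity macrophage genes the highest, 1.41.

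Inflammatory cytokine and NF-kB genes had a median log2 ratio of 0.25, with 3 of 20 described genes higher and 2 lower. The higher ones were *Saa3*, an acute phase protein (87.7 CPM in Matrigel-only, 29.5 in Vehicle, 229 in Palo), *Tnfaip3*, a brake on NF-kB (34.6, 41.5 and 54.1 CPM), and *Clec4e*. Without the 36 and 101 cells of the cavity set described below, which *Saa3* helped define, *Saa3* was at 72.8 CPM in Matrigel-only and 111 in Palo. Of the cytokines, *Tnf* was at 44.1, 57.6 and 65.7 CPM and *Il1b* at 52.2, 191 and 61.7 CPM. *Tnfaip2* (27.5, 54.9 and 15.2 CPM) and *Marcksl1* (193, 160 and 111 CPM) were lower. On centred ratios 8 of the 20 were higher and 2 lower.

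Chemokine ligands differed in both directions. Of 15 described, 5 were higher and 3 lower, beside 2.36% and 6.78% of all described genes, with a median log2 ratio of 0.28. *Ccl3* (32.1 CPM in Matrigel-only, 31.9 in Vehicle, 70.7 in Palo), *Ccl4* (38.0, 66.7 and 87.7 CPM) and *Cxcl1*, which attracts neutrophils (12.96, 3.35 and 31.9 CPM), were higher, with *Cxcl13* and *Cxcl14*. *Cxcl1*, *Cxcl13* and *Cxcl14* were under 20 CPM in Matrigel-only and were described only through Palo, where they were high. *Cxcl14* was held mainly outside macrophages, with 218 and 148 CPM in Matrigel-only and Palo stromal cells beside 6.23 and 23.6 CPM in macrophages. *Ccl8*, *Pf4* and *Ccl24* were lower. The monocyte attractant *Ccl2* was at 239, 389 and 285 CPM, within 1.5-fold.

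Of 22 interferon response genes described, 3 were lower and 0 higher, with a median log2 ratio of -0.21, close to that of all genes. They were *Rsad2* (29.0 CPM in Matrigel-only, 45.6 in Vehicle, 13.9 in Palo) and *Ifit1* (25.1, 50.3 and 14.5 CPM), antiviral proteins, and the GTPase *Gbp7* (105, 196 and 62.2 CPM). Vehicle was the highest library in 21 of the 22, again with no share over all described genes beside it. *Isg15*, a ubiquitin-like protein, was at 58.8, 160 and 55.9 CPM.

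For the drug's own pathway, 9 of 34 genes of retinoid receptors, metabolism and targets could be described, and 2 were lower and 0 higher. *Rara*, the receptor alpha, was at 52.2 CPM in Matrigel-only, 82.1 in Vehicle, 29.8 in Palo, and *Rarg*, the receptor gamma at which palovarotene acts, at 25.2, 26.6 and 28.0 CPM. Of genes that retinoids induce in many cells, *Dhrs3*, a retinal reductase, was at 234, 175 and 283 CPM. *Cyp26a1* and *Cyp26b1*, which degrade retinoic acid, were under 2 CPM in both Matrigel-only and Palo macrophages, *Rarb* at 1.99 and 2.31 CPM, and *Tgm2* at 6.58 and 12.5 CPM beside 117 in Vehicle. *Hpse*, heparanase, was the other lower gene (93.8, 64.3 and 57.1 CPM).

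For the BMP and activin pathway, 16 of 38 genes could be described, with 1 higher, 1 lower and a median log2 ratio of -0.02 that turned positive on centred ratios. The higher gene, *Id3*, an inhibitor of differentiation that BMP signalling induces, was at 12.7 CPM in Matrigel-only, 22.8 in Vehicle, 23.7 in Palo, and was held mainly in stromal cells (241 and 326 CPM). *Id2* was at 406, 364 and 501 CPM. *Smad5*, a transducer of BMP signals, was the lower gene (31.2, 29.0 and 19.3 CPM). *Inhba*, the activin A subunit, had 0.648 CPM in Matrigel-only, 6.77 in Vehicle and 0.660 in the Palo library macrophages, and *Smad7*, the inhibitory Smad, 8.27, 37.3 and 16.6 CPM.

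Growth factors had a median log2 ratio of -0.63, with 6 of 9 described genes lower and 1 higher, beside 6.78% and 2.36% of all. Besides *Igf1* and *Vegfa*, the lower ones were *Pdgfc* (55.3 CPM in Matrigel-only, 36.4 in Vehicle, 32.8 in Palo), *Vegfb* (25.2, 18.7 and 16.3 CPM), the protease *Plau* (35.7, 43.3 and 22.3 CPM) and *Nampt* (83.3, 142 and 54.9 CPM). On centred ratios 3 were lower. *Pdgfb*, another platelet-derived growth factor, was the higher gene (33.4, 41.0 and 52.8 CPM), and *Osm*, oncostatin M, was at 20.1 CPM in both.

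The list of cavity macrophage genes, carried by macrophages of the peritoneum and other body cavities, had the highest median log2 ratio, 1.41, with 6 of 8 described genes higher and 0 lower. *Prg4*, *Alox15* and *Cxcl13* were under 20 CPM in Matrigel-only and were described only through Palo, where they were high. The limit of 20 CPM thus helped to set this count and this median. Of the 21 genes of that list, 13 stayed under 20 CPM on both sides. Among them was *Gata6*, the factor that defines peritoneal macrophages, at 0.249 CPM in Matrigel-only and 2.09 in Palo. These are levels over all macrophages, and its level within the few cells of the set below is not given here. The set of *Alox15*, *Prg4*, *F5*, *Selp* and *Saa3* was in 36 Matrigel-only, 5 Vehicle and 101 Palo macrophages, at 1400 UMIs 0.271%, 0.0713% and 1.43%. Because the set was defined by *Prg4* and *Alox15* among others, most of their UMIs lay in it by construction, and outside these 101 cells 21 of the 3119 *Prg4* UMIs and 71 of the 1987 *Alox15* UMIs of Palo were found. Without the set's cells 5 members still reached 20 CPM, and their median log2 ratio, 0.61, was the value of *Saa3*. As *Saa3* helped define the cells left out, that median is not read as a result. The other members were *Lbp* (-0.49), *Fn1* (0.16), *Cxcl13* (1.32) and *Cd9* (1.35). Within the *Ms4a7* set the median of the list was 0.64. Without the set's cells in either library, *Slpi* turned to lower in Palo (1.91 and 0.636 CPM, log2 ratio -1.59, -2.50 to -0.73, from 38 and 17 UMIs). *Cxcl13* (12.7 and 31.7 CPM) and *Cd9* (19.5 and 49.6 CPM) were still higher, and *Spp1* kept its log2 ratio of 2.99. The list was named with these cells known and is no independent evidence of its direction.

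In the other lists few genes were beyond 1.5-fold, beside 2.36% higher and 6.78% lower of all described genes. A single member in a list of 18 or 25 genes is near these shares. Of 12 matrix protease genes, 2 were higher (*Mmp12* and *Timp1*, an inhibitor of metalloproteases at 11.8 CPM in Matrigel-only, 124 in Vehicle, 32.5 in Palo) and 2 lower (*Mmp9* and *Plau*). Of 15 iron and heme genes, 4 were lower, the receptor *Tfrc* (55.6, 39.4 and 32.0 CPM), *Trf*, *Cp* and *Ncoa4*, and 0 higher, while the ferritin chain *Fth1* was at 5086, 6213 and 7338 CPM. Of 15 eicosanoid genes, 2 were higher (*Alox15* and *Ptgir*) and 1 lower (*Ltc4s*). Of 18 cell cycle genes, 1 was higher (*Stmn1*) and 1 lower (*Pcna*), with *Mki67* at 87.7, 46.5 and 85.5 CPM, and the cycling set was in 4.30%, 1.85% and 4.35% of macrophages at 1400 UMIs. Of 25 immediate early and heat shock genes, which respond to dissociation of tissue, 1 was higher (*Atf3*, 187, 149 and 292 CPM) and 1 lower (*Hsph1*).

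Of the 6266 genes, 68 were over 5 times higher in stromal or remaining cells than in macrophages. These were left out of the leading genes but stayed in the counts above, with 5 higher and 17 lower. *Eln*, elastin, was at 24.3 CPM in Matrigel-only and 9.94 in Palo macrophages and at 3865 and 1788 CPM in stromal cells, and *Dpt*, dermatopontin, at 23.3 and 8.40 CPM beside 1970 and 1241 CPM. *Gja1*, connexin 43, was at 73.6 and 24.6 CPM beside 405 and 229 CPM. For each of these the stromal level was lower in Palo too. Besides *Cxcl14*, *Timp1* and *Id3*, the higher genes of this kind were *Ccdc80* (15.8 and 26.2 CPM in Matrigel-only and Palo macrophages) and *Cd24a* (32.3 and 50.1 CPM). *Fabp4*, the adipocyte fatty acid carrier, was at 49.2 CPM in Matrigel-only, 11.6 in Vehicle, 10.5 in Palo, and with a stromal limit of 0.5% in place of 1%, which left out 26 Matrigel-only and 4 Palo cells, its log2 ratio was 0.10 in place of -2.23.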

How the data were processed

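Droplet RNA sequencing was run on cells of day 5 masses, 1 library per group. Reads were processed with Cell Ranger 3.0.2 against mm10, and the authors deposited raw UMI counts per gene and barcode. The submitters' processing notes also name Seurat 3, and no normalization of the deposited counts was stated. Counts of the macrophages were summed per library over 31053 genes and divided by their total to give CPM. A gene was described at 20 CPM or more on 1 side, and a difference was counted at 1.5-fold. Ratios carry exact conditional, levels exact Poisson and shares exact binomial 95% intervals, which cover counting error only. A side with 0 UMIs was set to 3 UMIs. Each cell was thinned to 1400 UMIs for shares, which left out 496 Matrigel-only, 232 Vehicle and 121 Palo macrophages as shallower.

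Scrublet at its own threshold called 1, 3 and 0 cells and so did not work, and the 609, 240 and 426 highest scores were left out only as an alternative. Doublets therefore stayed in the main values. Genes named without a list were the 15 largest and the 15 smallest ratios and, among genes held mainly outside macrophages, 5 in each direction. Members of lists beyond 1.5-fold were named before others. A few relatives of named genes were added after their values were seen. The members, lists and sets were chosen with earlier results of these data known. Gene IDs were matched to GENCODE vM21 (30934 of 31053), and promoter sequences are from RefSeq on GRCm38.p6. Python 3.11.15, scipy 1.17.1, scanpy 1.11.5 and, for TMM factors, edgeR 4.0.16 were used. The calculation of the ratio was tested on simulated counts. These held counting error only and no differences between mice, libraries or kinds of cells. Clusters of the authors, protein and histology were not used here.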

Additional observations from a re-analysis of the deposited data

Results flagged for a closer look

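The log2 ratios of Palo over Matrigel-only of 2 named genes lay, with their intervals, beyond 1.5-fold in opposite directions in macrophages and in stromal cells of the same libraries, and the difference between the cell classes was not tested. *Mmp9*, a gelatinase, had a log2 ratio of -2.51 in macrophages and 1.84 in stromal cells. *Lpl*, lipoprotein lipase, had a log2 ratio of 0.66 in macrophages and -1.14 in stromal cells.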

How the results depend on the processing

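With 1 library per group, the differences between mice and between libraries cannot be told apart from those between groups. Depth limits genes near 20 CPM, and the intervals cover counting error only. No paired analysis was possible because each group had 1 sample. No library could be left out. The share of macrophages in Palo over Matrigel-only stayed between 11.5 and 12.2 percentage points over 5 alternatives, none of which brought the cells to 1 depth. The 148 higher genes became 284 with TMM scaling, 272 with centring, 83 at 50 CPM and 45 at 2-fold, and the 425 lower genes 189, 206, 216 and 75, and these 2 counts stayed within 1.5 times of themselves in the 15 other alternatives. The 30 leading genes kept their direction in all alternatives but without the cavity set, where 28 were read, *Prg4* and *Alox15* being of the set, and *Slpi* turned to -1.59, and in the *Ms4a7* set, where *Mucl1* turned to 0.46. They were chosen as the most extreme ratios of the same cells, so that their direction had little room to turn. The median log2 ratio of hypoxia genes, -0.50, was -0.32 with TMM, -0.33 centred and -0.36 in the *Hal* set. That of MHC class II, 0.34, was 0.51, 0.50 and 0.59 there, 0.39 with at least 4 markers or without *Lyz2* as a marker, 0.25 in thinned cells and 0.46 in the *Ms4a7* set. That of interferon genes, -0.21, was -0.038, -0.049 and -0.55, and that of inflammatory genes, 0.25, was 0.42, 0.41 and 0.37, in the same order. *Fabp4* turned to 0.10 at the stromal limit of 0.5%, 0.16 without cells with markers of other types and 0.34 without the *Mmp12* set. In the *Ms4a7* set *Ccdc80* turned to -0.33, *Arg1* to 0.23 and *F5* to -0.077, and in the *Hal* set the globin genes *Hbb-bs* to -5.88 and *Hbb-bt* to -5.51. The causes were not tested.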
